A study of Mus musculus with 4 samples.

Results

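The 10 core genes of the circadian clock were followed in the liver of ageing mice: Arntl, Clock, Npas2, Per1, Per2, Per3, Cry1, Cry2, Nr1d1 and Nr1d2. They were picked by gene symbol, and all 10 were found among the 33924 gene symbols of the count files. The livers came from male C57BL/6Rj mice (strain written C57BL6 in the labels) that were 3, 9, 15 or 21 months old and untreated, with food and water ad libitum under a cycle of light and dark. Each age was a single library, made from 1 pool of liver RNA from 24 mice (4 mice at each of 6 times of day), so that there were no replicates and the spread between mice could not be measured. Since each pool mixed the whole day, a value stands for the mean over the day, and neither the amplitude nor the phase of a rhythm can be read from it. The study compared the ages to find genes whose level stays constant and that may serve as references. The clock genes are part of the same count tables. By hybridization of individual samples with Nanostring probes, the study also compared mice of 3 and 24 months. It reported no decrease of Arntl, Clock, Per or Nr1d mRNA, and an increase of Csnk1d, Csnk1e and Sfpq. Those ages and that method differ from the pools described here.

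In the mammalian clock, the proteins of Arntl (also called BMAL1) and of Clock or its paralogue Npas2 pair up and activate genes through a DNA element called E-box. Among their targets are the Per and Cry genes, whose proteins come back to the nucleus and hold the activators down. Nr1d1 and Nr1d2, also called REV-ERBα and REV-ERBβ, form a second loop, in which they repress Arntl through an element called RORE. In liver, this oscillator sets daily rhythms in the metabolism of lipids, glucose and bile acids.

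The libraries were built from capped 5’-ends, so that a read marks the start of a transcript. The upstream windows of 4 members are shown. They are examples with matches to the letters of elements through which the clock is known to act. One of them belongs to Nr1d2, which is among the genes whose counts differed between pools. Clock also differed between pools and had a match in 1 of its windows, which is not shown here. Promoters of 9 members (13 windows, since some genes have several starts) were found in the RefSeq table of GRCm38.p6. Each window is the stretch of 250 bases in front of an annotated start, written 5’ to 3’ on the strand of the gene. Capitals mark the E-box CACGTG, the core of the RORE AGGTCA and the D-box TTANGTAA, searched on both strands, so that TGACCT is the RORE core on the other strand. The windows are chr11:69098699-69098948 (plus strand) for Per1, chr10:85185055-85185304 (minus strand) for Cry1, chr4:151044666-151044915 (minus strand) for Per3 and chr14:18239107-18239356 (minus strand) for Nr1d2.
Per1: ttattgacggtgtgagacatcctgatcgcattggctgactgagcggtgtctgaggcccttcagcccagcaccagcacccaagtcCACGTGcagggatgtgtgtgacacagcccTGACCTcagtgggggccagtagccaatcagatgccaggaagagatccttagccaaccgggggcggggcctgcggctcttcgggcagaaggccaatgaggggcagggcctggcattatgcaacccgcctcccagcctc
Cry1: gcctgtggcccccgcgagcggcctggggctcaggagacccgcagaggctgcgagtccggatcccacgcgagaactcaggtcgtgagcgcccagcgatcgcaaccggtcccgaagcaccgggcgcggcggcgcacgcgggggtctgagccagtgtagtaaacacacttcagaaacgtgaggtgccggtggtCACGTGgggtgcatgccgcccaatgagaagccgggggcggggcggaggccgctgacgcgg
Per3: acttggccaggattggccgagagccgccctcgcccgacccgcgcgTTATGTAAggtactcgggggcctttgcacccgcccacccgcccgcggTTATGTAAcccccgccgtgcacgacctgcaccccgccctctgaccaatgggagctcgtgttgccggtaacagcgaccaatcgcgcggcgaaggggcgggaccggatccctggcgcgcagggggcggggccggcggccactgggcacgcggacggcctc
Nr1d2: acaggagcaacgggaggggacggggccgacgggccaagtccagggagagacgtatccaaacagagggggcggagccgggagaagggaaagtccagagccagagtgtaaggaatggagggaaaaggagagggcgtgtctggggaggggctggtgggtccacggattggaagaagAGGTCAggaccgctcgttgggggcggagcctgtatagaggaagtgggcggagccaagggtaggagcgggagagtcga
The E-box was found in 2 of the 13 windows, 166 bases before the start of Per1 and 60 bases before that of Cry1. Of all 32851 promoters in the table, 6.02% held one. The RORE core was found in 3 of the 13 windows (Per1, Nr1d2 and the most downstream of the Clock starts), against 14.0% of all promoters. The D-box, to which the PAR bZip proteins Dbp, Tef and Hlf bind, was found in 1 of the 13 windows and in 2.06% of all promoters. It occurred at 205 and 158 bases before the start of Per3. These are matches of letters, and binding was not measured. The windows of Arntl, Npas2, Cry2 and Nr1d1 held none of these elements.

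The counts on genes summed to between 525772 (15 months) and 958586 (9 months) per library. Counts were made comparable by dividing them by the geometric mean of all genes with a count in every library, the centre of the centered log-ratio (clr). The scale factors were 1.21, 1.18, 0.728 and 0.958 at 3, 9, 15 and 21 months, and a count divided by its factor is called scaled count below. The liver label was checked with 6 hepatocyte genes such as Alb and Ttr, whose summed level was between 104996 and 119983 cpm, counts relative to the total of the library. The lists for other cells were lower at every age. The lowest were cholangiocyte markers with 6.26 to 24.5 cpm (Epcam at 0) and lymphocyte markers with 10.4 to 22.8 cpm. Endothelial markers reached at most 416 cpm, stellate markers 439 cpm, macrophage markers 446 cpm and haemoglobin genes 1604 cpm.

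Of the 10 clock genes, Clock and Nr1d2 differed between the 4 pools by more than counting noise. Clock was about 3 to 5 times higher in the 3 and 15 month pools than in the 9 and 21 month pools, with scaled ratios of 0.317 (9 over 3 months), 0.218 (21 over 3) and 0.238 (21 over 15), while the fourth such pair, 15 over 9 months with a ratio of 2.89, did not pass in this scaling. Nr1d2 had its highest scaled counts at 9 and 15 months, but no single pair of pools passed. Nr1d1, the member with the most reads, stayed within a range of 1.24-fold over all ages. The test was Pearson's chi-square test on the 4 counts of a gene, with Benjamini-Hochberg adjustment over the 7362 genes with a summed count of at least 20. It called 2 of the 9 members that passed this filter, beside 33.0% of all genes tested, so that the share among the members was not above the background. The test compares these pools with each other and not the ages with the spread between mice.

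**Figure D1:**
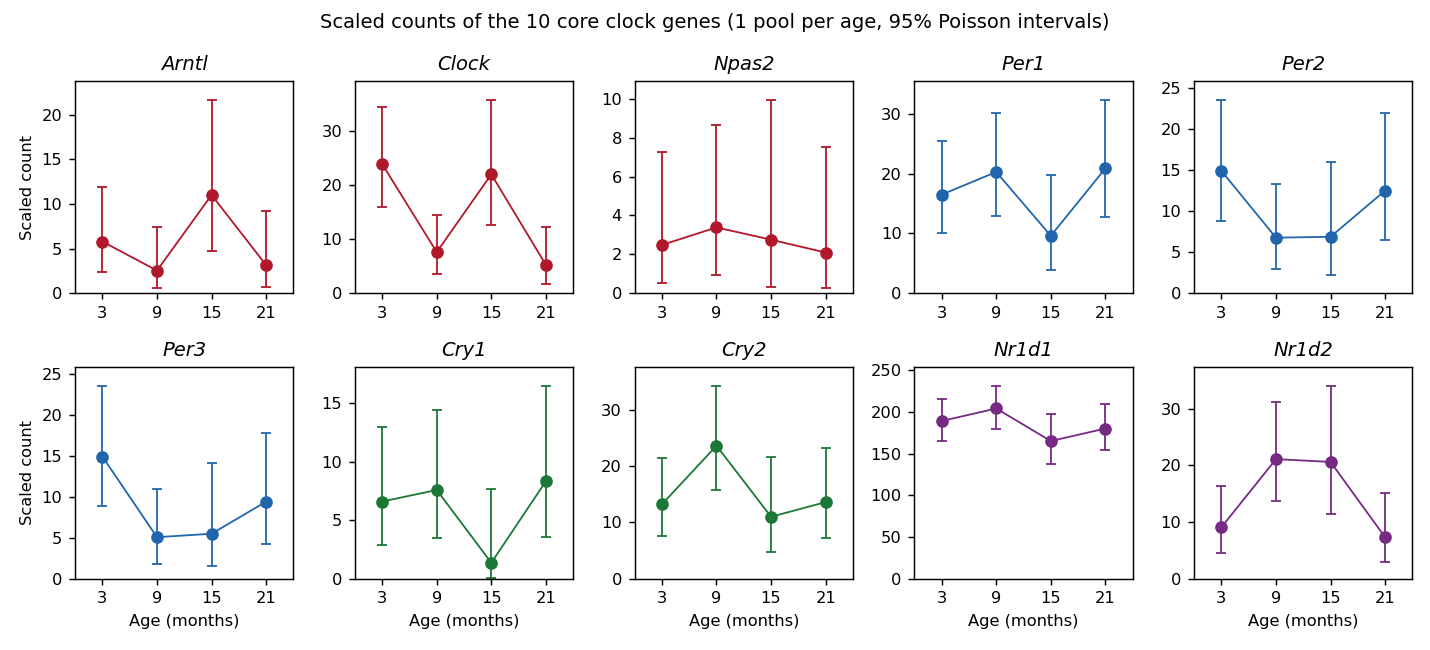
Scaled counts (y axis, count divided by the clr scale factor of its library, separate scale in each panel) of the 10 clock genes against age in months. Each point is 1 pool and bars are exact 95% Poisson intervals. Clock is high at 3 and 15 months and low at 9 and 21 months, Nr1d2 is high at 9 and 15 months, and Nr1d1 lies between 165 and 204 at all ages.

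Among the activators, Clock encodes the DNA-binding partner of BMAL1 (chromosome 5, 76639992 to 76733817, minus strand, in NCBIM37, the assembly also called mm9, on which the gene spans are given). It had 29, 9, 16 and 5 counts in the order of age (3, 9, 15, 21 months), or scaled counts of 23.9, 7.60, 22.0 and 5.22. The pools of 3 and 15 months were therefore high and those of 9 and 21 months low. As values, these 4 alternate and do not fall steadily with age. The rise from 9 to 15 months, on which the alternation rests, did not pass the test in this scaling. The 4 counts of Clock differed beyond counting noise (chi-square adjusted p = 0.00154). In the exact binomial test of single pairs of pools, adjusted over all genes tested, Clock was lower at 9 than at 3 months (ratio 0.317, 95% interval from 0.132 to 0.689, exact adjusted p = 0.0179). It was also lower at 21 than at 3 months (0.218, from 0.0659 to 0.57, exact adjusted p = 0.00677) and lower at 21 than at 15 months (0.238, from 0.0681 to 0.679, exact adjusted p = 0.0402). Neighbours in the order of the levels, from 3 over 15 and 9 to 21 months, were not separated, with exact adjusted p of 0.985, 0.0902 and 0.833. The pair of 15 and 9 months did pass when counts were scaled by 7 marker genes chosen in the study (ratio 3.53) or by Gapdh (4.1). Leaving out any of the 4 pools kept the chi-square call of Clock. The share of alignment records that were not unique, and so not counted on genes, was 72.2% and 74.6% in the pools of 3 and 15 months, where Clock was high. It was 76.7% and 76.0% in the pools of 9 and 21 months, where Clock was low, and its part in the result was not tested. As the samples are bulk RNA, fewer cells with the transcript and less transcript per cell cannot be told apart.

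Arntl, the gene of the obligate partner BMAL1, (chromosome 7, 120350979 to 120457636, plus strand) had 7, 3, 8 and 3 counts in the same order. Its scaled counts were 5.78, 2.53, 11 and 3.13, again with both of the higher values at 3 and 15 months, but counts this low were not separated from counting noise (chi-square adjusted p = 0.137). A level at both 3 and 15 months above that at both 9 and 21 months was seen for Arntl and Clock among the 9 members tested, and for 15.1% of all genes tested. This order was noticed in the values and carries no test. Npas2, which can stand in for Clock (chromosome 1, 39250576 to 39420079, plus strand), had 3, 4, 2 and 2 counts, below the filter of the test. Its ratio of 21 over 3 months had an interval from 0.0704 to 7.36, so that even a several-fold change was not detectable at this depth.

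Of the Per genes, which encode the negative limb together with Cry, none passed the chi-square test. Per1 (chromosome 11, 68908719 to 68923462, plus strand) had 20, 24, 7 and 20 counts and scaled counts of 16.5, 20.3, 9.61 and 20.9. Its lowest value was that of the 15 month pool (chi-square adjusted p = 0.389). Per2 (chromosome 1, 93312561 to 93355907, minus strand) had 18, 8, 5 and 12 counts, or 14.9, 6.76, 6.87 and 12.5 after scaling (chi-square adjusted p = 0.269). Per3 (chromosome 4, 150377761 to 150418774, minus strand) had 18, 6, 4 and 9 counts, or 14.9, 5.07, 5.49 and 9.40 (chi-square adjusted p = 0.121). Per2 and Per3 thus had their higher values at 3 and 21 months and the lower ones at 9 and 15 months. The lowest p of a single pair among the Per genes was that of Per3 from 3 to 9 months, with a ratio of 0.341 (95% interval from 0.111 to 0.896, exact adjusted p = 0.113). The intervals belong to 1 gene and 1 pair each and are not adjusted, so that an interval may leave out 1 while the adjusted p does not pass.

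The Cry genes encode the strongest repressors of the activator pair. Cry1 (chromosome 10, 84594447 to 84647799, minus strand) had 8, 9, 1 and 8 counts, or 6.61, 7.60, 1.37 and 8.35 after scaling. The single read at 15 months gave the lowest value of Cry1, and the ratio of 15 over 9 months was 0.181 with an interval from 0.00412 to 1.30 (exact adjusted p = 0.333). Cry2 (chromosome 2, 92243803 to 92274200, minus strand) had 16, 28, 8 and 13 counts, or 13.2, 23.6, 11 and 13.6 after scaling. Here the 9 month pool was highest, and the 4 counts were not separated from counting noise (chi-square adjusted p = 0.176 for Cry2 and 0.398 for Cry1). Exons of Cry2 share 295 bases with the lincRNA gene D930015M05Rik on the opposite strand, which had no count in any library.

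The Nr1d genes encode nuclear receptors that repress transcription and bind haem. Nr1d1 (chromosome 11, 98629246 to 98636647, minus strand) had 229, 241, 120 and 172 counts. The scaled counts were 189, 204, 165 and 180, and no difference beyond counting noise was detected (chi-square adjusted p = 0.372), although Nr1d1 was called with Gapdh as the only reference. The ratios to 3 months were 1.08 at 9 months (95% interval from 0.894 to 1.30), 0.871 at 15 months (from 0.693 to 1.09) and 0.95 at 21 months (from 0.775 to 1.16). At this depth the ratio between pools can thus be bounded, for counting error alone, much more closely for Nr1d1 than for any other member. In this scaling none of the 3 intervals reaches 2-fold in either direction. With Gapdh as the only reference the ratio was 1.63 at 15 months. That reference also gave chi-square calls for 52.9% of all genes tested, against 33.0% in the main scaling. The study found Gapdh rather variable and left it out of its set of reference genes. The exons of Nr1d1 share 263 bases with those of Thra, the thyroid hormone receptor gene on the opposite strand. Thra had 19, 14, 5 and 5 counts, and whether the counting used the strand is not given in the sources used here.

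Nr1d2 (chromosome 14, 19036568 to 19071641, minus strand) had 11, 25, 15 and 7 counts, or 9.08, 21.1, 20.6 and 7.31 after scaling. The 9 and 15 month pools were high and the 3 and 21 month pools low, and the 4 counts differed beyond counting noise (chi-square adjusted p = 0.033). None of the 6 pairs passed on its own. Summed haemoglobin genes (930, 1604, 1183 and 879 cpm) had the same order of pools, and stellate markers (241, 439, 382 and 346 cpm) were also highest at 9 and 15 months, and their part in the result was not tested. The smallest p was that of 21 over 9 months, with a ratio of 0.346 (95% interval from 0.126 to 0.823, exact adjusted p = 0.0889). The call of Nr1d2 rests on single pools, since the adjusted p was 0.0906 without the 3 month pool, 0.0819 without the 9 month pool and 0.115 without the 21 month pool. In addition, the first 100 bases of the annotated transcripts of Nr1d2 hold 132 different stretches of the read length of 35 bases, and 58 of these (43.9%) matched a second place of the genome with at most 1 mismatch. Reads from such places may be missing from the counts of Nr1d2, whereas no stretch of the other 9 members had a second match.

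**Figure D2:**
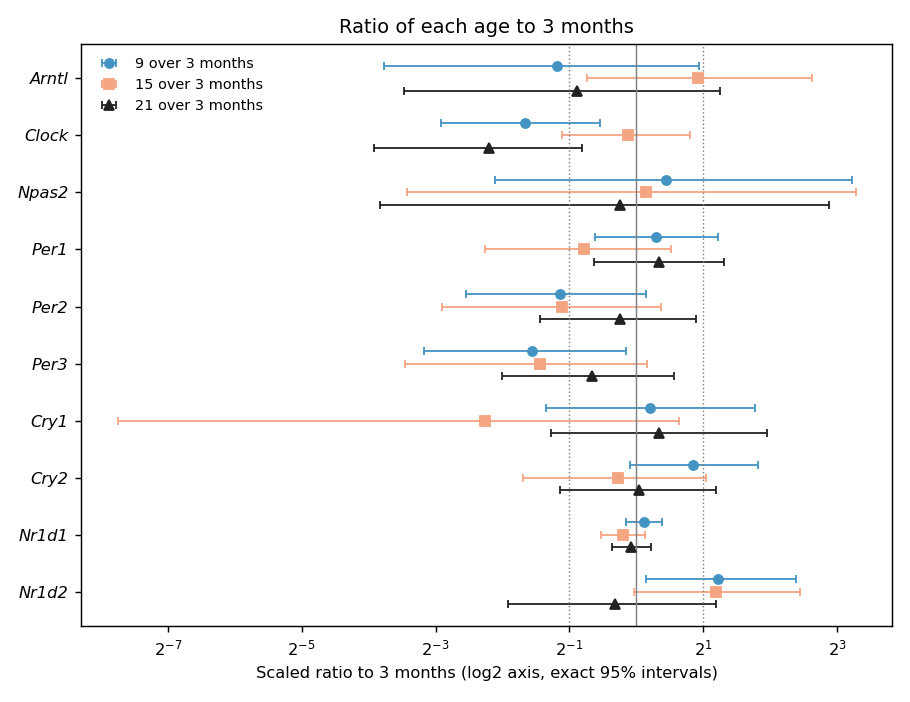
Scaled ratio of each age to 3 months (x axis, log2 scale) for the 10 clock genes, with exact 95% Clopper-Pearson intervals that cover counting error only. Dotted lines mark 2-fold changes. For Clock the intervals at 9 and 21 months lie below 1. At 9 months the interval of Per3 also lies below 1 and that of Nr1d2 above 1, but neither passed the adjusted test. Nr1d1 has the narrowest intervals of all members.

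Setting each age against 3 months, 1 of the 9 tested members passed the exact binomial test at 9 months (Clock, beside 14.1% of all genes), none at 15 months (beside 13.0%) and 1 at 21 months (Clock, beside 12.5%). The 3 ratios share the 3 month pool. Between the later ages, none passed for 15 over 9 months (beside 10.2%), none for 21 over 9 months (beside 9.79%) and Clock alone for 21 over 15 months (beside 9.02%). For 21 over 3 months, 3 members had ratios above 1 and 6 below. Their median on the log2 scale was -0.25, against -0.03 for all genes tested. With respect to size alone, Clock was the only member at least 2-fold lower at 21 than at 3 months (14.0% of all genes), and no member was at least 2-fold higher (13.0%). At 9 months, Arntl, Clock, Per2 and Per3 were at least 2-fold lower than at 3 months (11.9% of all genes) and Nr1d2 at least 2-fold higher (12.2%), of which only Clock passed the test. Over all 6 pairs, 21 of the 54 member ratios (38.9%) were at least 2-fold in either direction, compared with 26.9% of the ratios of all genes. Among genes with a summed count of at least 50, these were 11 of 30 (36.7%) for Clock, Per1, Cry2, Nr1d1 and Nr1d2, compared with 15.4% for all genes. The order turned with Gapdh as the only reference (29.6% of member ratios against 33.0%) and with all genes that had a count and a pseudocount of 0.5 (35% against 40.1%). The 6 ratios of a gene share its 4 pools, and neither share was tested. Low counts pass 2-fold more easily by counting noise, and the shares were not matched for depth. The tested members other than Nr1d1 had summed counts of 21 (Arntl) to 71 (Per1). Of those with at least 50, Nr1d2, Clock, Cry2 and Per1 had only 58 to 71.

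A steady change with age was not found for any member. The linear trend over the 4 ages was tested with edgeR's quasi-likelihood test, which takes the scatter around the trend as its error. With 2 residual degrees of freedom per gene, the test also draws on the scatter of other genes. It called 6 of 5569 genes (0.108%), of which 3 rose (0.0539%) and 3 fell (0.0539%), and 0 of the 7 members with enough counts, Clock, Per1, Per2, Per3, Cry2, Nr1d1 and Nr1d2. At an unadjusted p of 0.05 the count of members was also 0, as it was by DESeq2's Wald test, whereas edgeR had 290 genes (5.21%) at that level. The largest slope was that of Clock, -1.28 ± 0.89 (SE) on the log2 scale from 3 to 21 months (edgeR, adjusted p = 0.998), and it was -0.18 without the 21 month pool. Nr1d1 had the slope with the smallest error, -0.11 ± 0.38 (edgeR, adjusted p = 0.998). The common dispersion of 0.0733 in this fit corresponds to a scatter of 27.1% around the trend, over and above counting noise, and the chi-square and binomial tests do not contain this part.

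By the variance of clr over the ages, the measure of stability used in the study, Nr1d1 was the lowest member and Cry1 the highest, which is given as a description. The place of Cry1 rests on its single read at 15 months, since its variance was 0.0136 without that pool, and Clock was above it with a pseudocount of 0.5 (0.533 against 0.464), with the 7 marker genes (0.641 against 0.638) and with Gapdh (0.688 against 0.427). The variance of Nr1d1 was 0.0079, and of the 8704 genes counted in every library 2.69% were lower. Over the other scalings it lay between 0.000422 (7 marker genes) and 0.0453 (Gapdh), and it was 0.0124 without the 3 month pool and 0.0129 without the 21 month pool. Counting noise alone would give 0.00567. The other variances ranged from 0.0404 for Npas2 over 0.11 for Cry2, 0.129 for Per1, 0.166 for Per2, 0.253 for Per3, 0.302 for Nr1d2, 0.437 for Arntl and 0.581 for Clock to 0.728 for Cry1. Of the 10 members, 4 lay below the median of all genes of 0.16. For Cry1 and Arntl, counting noise alone would give 0.34 and 0.234, and for Npas2 0.396, more than the variance that was observed. For Clock and Nr1d2, it would give 0.102 and 0.0851.

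**Figure D3:**
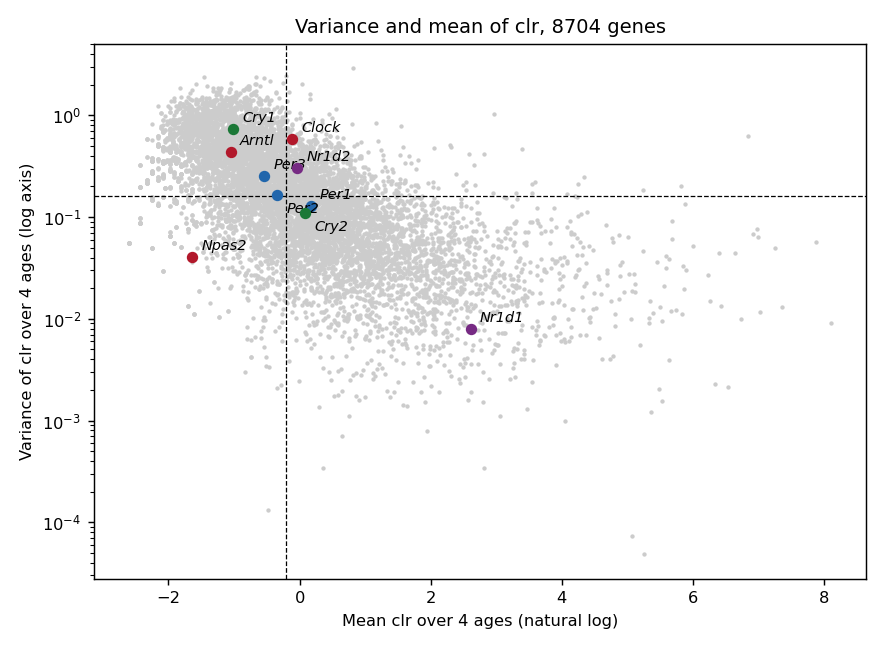
Variance of clr over the 4 ages (y axis, log scale) against mean clr (x axis, natural log) for 8704 genes (grey), with the 10 clock genes in colour (red activators, blue Per, green Cry, purple Nr1d) and the medians as dashed lines. Nr1d1 has a high mean of 2.61 and a variance of 0.0079, and Clock lies above the median variance at 0.581.

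Ratios within a library do not depend on the scaling between libraries, and the arms of the clock were therefore also set against each other. The summed counts of Nr1d1 and Nr1d2 over those of Arntl, Clock and Npas2 gave a ratio of 6.15 at 3 months (95% interval from 4.37 to 8.87) and of 5.19 at 15 months (from 3.39 to 8.23). At 9 months the ratio was 16.6 (from 10 to 29.5), and in the oldest pool 17.9 (from 9.51 to 38). The intervals of 3 and 15 months do not meet those of 9 and 21 months. The ratio of the Per genes to the activators was 1.44, 2.38, 0.615 and 4.10, and that of the Cry genes 0.615, 2.31, 0.346 and 2.10, at 3, 9, 15 and 21 months. All 3 ratios were thus higher at 9 and 21 months than at 3 and 15 months, but for Per (0.937 to 2.22 at 3 months, 1.29 to 4.56 at 9 months) and for Cry (0.354 to 1.05 at 3 months, 0.947 to 4.99 at 21 months) intervals of the high and low pools overlap. The 3 ratios share their denominator, of which Clock made up 29 of 39, 9 of 16, 16 of 26 and 5 of 10 counts. Against Clock alone, Nr1d1 had ratios of 7.90, 26.8, 7.50 and 34.4. Nr1d1 over Nr1d2 was 20.8 (from 11.4 to 42.3), 9.64 (from 6.37 to 15.2), 8 (from 4.66 to 14.7) and 24.6 (from 11.7 to 62), and these intervals overlap.

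**Figure D4:**
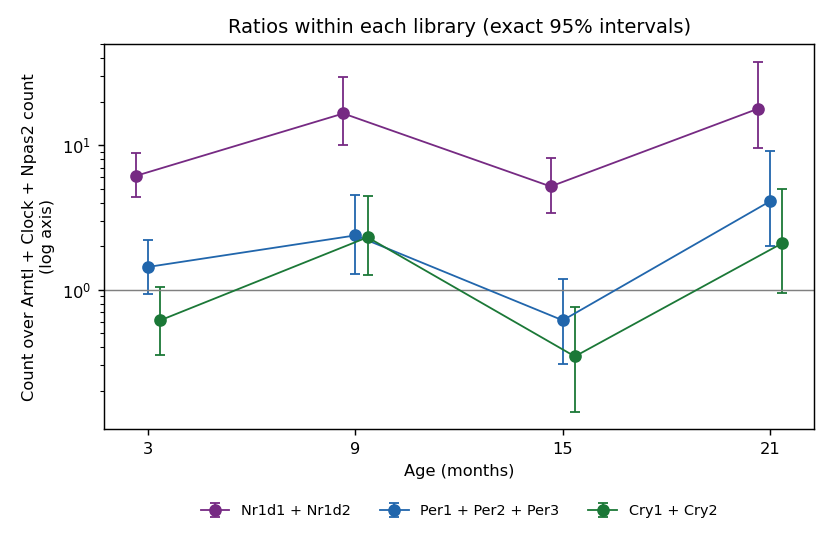
Summed counts of the Nr1d, Per and Cry genes divided by those of Arntl, Clock and Npas2 in the same library (y axis, log scale) against age in months, with exact 95% intervals from the counts. Points are shifted sideways for legibility. All 3 ratios are higher at 9 and 21 months than at 3 and 15 months, for the Nr1d genes 16.6 and 17.9 against 6.15 and 5.19.

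Around the core loops, 24 further regulators of the clock were looked up, such as kinases, ubiquitin ligases and cofactors. Of these, 16 had enough counts, and 8 differed between the pools by the chi-square test, beside 33.0% of all genes. Bhlhe40, a repressor that competes at E-boxes, had 68, 97, 93 and 105 counts (scaled 56.2, 81.9, 128 and 110, chi-square adjusted p = 8.95e-06) and was lowest at 3 months. Pspc1, a DBHS protein, had 4, 14, 7 and 31 counts and was highest at 21 months (chi-square adjusted p = 2.56e-06). So was Fbxw11, a ubiquitin ligase subunit acting on PER, with 11, 12, 3 and 29 counts (chi-square adjusted p = 6.81e-05). Sfpq, another DBHS gene, had 14, 33, 9 and 17 counts (chi-square adjusted p = 0.0456), with the highest level at 9 months. Ncor1, the corepressor used by REV-ERB, was lowest at 3 months and highest at 9 months with 55, 96, 54 and 60 counts (chi-square adjusted p = 0.0207). Nampt (21, 7, 19 and 13 counts) and Usp2 (31, 11, 15 and 13) had their higher scaled counts at 3 and 15 months (chi-square adjusted p = 0.0178 and 0.0459). This order was seen for 3 of the 16 regulators tested, beside 15.1% of all genes tested. It was noticed in the values and carries no test. By edgeR's trend test, 0 of 14 regulators passed, and Bhlhe40 and Pspc1 had an unadjusted p under 0.05 (edgeR, adjusted p = 0.703 and 0.345). The kinase gene Csnk1d had 31, 18, 15 and 24 counts (chi-square adjusted p = 0.401), and Csnk1e had 1, 1, 3 and 4. Ciart, listed under its older symbol Gm129, had 1, 3, 10 and 3 counts, and Arntl2 had none.

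The PAR bZip genes Dbp, Tef and Hlf are driven by the activators and carry the rhythm to genes of metabolism. Dbp had 55, 27, 17 and 27 counts, or scaled counts of 45.4, 22.8, 23.3 and 28.2, with the 3 month pool above the others (chi-square adjusted p = 0.0248). Tef (53, 40, 27 and 46 counts) and Hlf (55, 38, 25 and 47 counts) were not separated from counting noise (chi-square adjusted p = 0.471 and 0.255).

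Genes with a course like that of the best counted members were looked for among 2445 genes with a summed count of at least 100, by the Euclidean distance of the 4 scaled log2 values centred on their mean. The nearest to Nr1d1 were Atp5e (distance 0.0399), Ces1f (0.0535) and Csf1r (0.0561), and 1026 genes lay within 0.5 of this flat course. The nearest to Per1, with its low 15 month pool, were Ubap2l (0.0799, with 41, 48, 14 and 38 counts), Cct2 (0.088) and Pvrl1 (0.107), and 186 genes lay within 0.5. With 4 values per gene, such a likeness is a description only.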

How the data were processed

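Liver RNA of 1 pool per age was read from capped 5’-ends with 35 bp SOLiD reads, all 4 libraries on the same lane. The authors mapped the reads to mm9 with the CLC Genomic workbench, and HTSeq is named in the submitters' processing notes (its settings are not given in the sources used here). The deposited values are raw counts of reads per gene symbol. Records without a gene (15.5% to 19.0%), without a unique alignment (72.2% to 76.7%) or ambiguous (0.377% to 0.473%) were left out. Ages were taken from the labels. Counts were scaled by the geometric mean of 8704 genes. The 4 counts were compared with the chi-square test, pairs of pools with the exact binomial test and Clopper-Pearson intervals of 95%, and the age trend with edgeR 4.0.16 (TMM, filterByExpr), each with Benjamini-Hochberg adjustment over all genes tested and a threshold of 0.05. R 4.3.3, DESeq2 1.42.0, Python 3.11.15 and scipy 1.17.1 were used, and the tests were tried on simulated data. Intervals cover counting error only. Gene positions come from GENCODE M1 of NCBIM37, and 35-base windows were searched in that genome.

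The members and gene lists were chosen with earlier results of these data known. Named are the members, the listed regulators and outputs (those past a test, all 3 outputs and some low ones, namely Csnk1d, Csnk1e, Ciart and Arntl2, added after their values were seen, while 1 regulator past the chi-square test is not reported here), overlapping genes, and the 3 genes nearest in course to the 2 members with the most counts. Alternatives were other scale factors, filters, a pseudocount of 0.5, log2 of age, DESeq2 and leaving out each pool.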

Additional observations from a re-analysis of the deposited data

How the results depend on the processing

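Clock remained called by the chi-square test in all 11 alternatives run, and Nr1d2 in all scalings and filters but not without the pools of 3, 9 or 21 months. No member passed the age trend in any of the 9 alternatives. Without single pools, only 4 to 6 members had enough counts for this test. Clock was not among them without the 3 or the 15 month pool. With Gapdh as the only reference, every ratio shifted on the log2 scale by 0.40 at 9 months, 0.91 at 15 months and 0.33 at 21 months against 3 months, 3895 genes and 4 members (Arntl, Clock, Nr1d1 and Nr1d2) were called by the chi-square test, 13 member ratios passed the pair-wise test in place of 3, and Clock no longer passed for 9 over 3 months (ratio 0.42). The geometric mean of 7 marker genes of the study (Atp5h, Gsk3b, Sirt2, Nono, Tprkb, Tspo and Ttr) shifted ratios by -0.16 at 9 months and 0.13 at 15 months, with which Clock also passed for 15 over 9 months, and total counts by 0.13 at 15 months. Without single pools, the chi-square test called between 1405 and 1734 genes and between 1 and 2 members, and the trend test between 7 and 23 genes (6 with all pools). The trend test called 2 genes with total counts and 0 with DESeq2's Wald test, whose unadjusted p was under 0.05 for none of the members. The number of member ratios past 2-fold was 11 with a summed count of at least 50, 16 with Gapdh and 21 of 60 with all genes and a pseudocount of 0.5, and in the last 2 the share was below that of all genes. The number of members below the median variance of clr was 7 with a pseudocount of 0.5 and between 2 and 5 without single pools. Slopes that changed sign, none past the threshold, were those of Nr1d2 with log2 of age (0.41) and, without single pools, of Per1 (between -0.85 and 0.31), Cry2 (between -1.26 and 0.02) and Nr1d2 (between -2.04 and 1.85). The cause of these shifts was not tested. No paired analysis was possible because each age has 1 pool. Depth limits all members but Nr1d1: for 21 over 3 months, the interval of 5 of 10 members held both 0.5 and 2.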
